A study of Mus musculus with 21 samples.

Results

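The comparison set testes of gestation day 18 (gd18) against testes of gestation day 16 (gd16) in the mouse, across all genes that could be measured. The arrays compared were 6 of the 21 in the series, 3 at gd18 and 3 at gd16, chosen by their stage labels. The gd18 animals were male wild-type CD-1 fetuses at Theiler stage 26, and the gd16 animals were male wild-type CD-1 fetuses at Theiler stage 24. CD-1 is an outbred stock. No animal carried a transgene or received a treatment, per the labels. Each array held total RNA of the testis pair of 1 unpooled animal, and per the design text every animal came from its own dam. The other testis arrays covered gd11, gd12, gd14 and postnatal day 2 (pnd2). Those of gd11 held pools of 2 and those of gd12 pools of 5. All testis arrays, pools included, entered the fit that gave the p values, through its estimate of spread. The last array held RNA of whole newborns and was not used here. Each value is the linear intensity of a probe set, and every array had been scaled to the same trimmed mean of 500. The text calls a gene near background on a day when its mean lay under 71.6, which is the 40th percentile over the testis arrays.

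In this period the mouse testis is already organised into cords. The cords hold Sertoli cells, which support the germ line, and fetal male germ cells, which have stopped dividing and are resetting their DNA methylation while the piRNA pathway silences transposons. Fetal Leydig cells between the cords make androgens from cholesterol, which they take up from lipoproteins or synthesise, and the interstitial cells lay down the matrix around the cords.

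The labelled tissue was checked on its markers. The Sertoli cell gene Amh, the hormone that removes the Müllerian ducts, averaged 2354 ± 828 at gd18 and 1462 ± 438 at gd16 (SD, n = 3 each, as for every mean below). Xist, expressed from the inactive X chromosome of females, was near background at both days, at 60.3 ± 12.4 at gd18 and 52.6 ± 18.6 at gd16, while the Y-linked gene Eif2s3y was expressed at both. Correlations over all probe sets were 0.967 to 0.976 between arrays of 1 day and 0.959 to 0.970 between arrays of the 2 days. The 3′ to 5′ signal ratio of beta-actin, which rises as RNA degrades, lay between 1.27 and 1.32 at gd18 and between 1.30 and 1.34 at gd16. That of Gapdh lay between 0.689 and 0.764 at gd18 and between 0.687 and 0.708 at gd16.

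Of 14338 genes tested, 700 (4.88%) differed between gd18 and gd16 at an adjusted p below 0.05 (limma on all 20 testis arrays, 2-sided, Benjamini-Hochberg). At gd18, 244 genes (1.7%) were higher and 456 (3.18%) were lower. Of the 700, 82 were higher and 119 lower by at least 2-fold. The median log2 change over all genes tested was 0.02. Changes below are differences of log2(intensity + 22.4), gd18 minus gd16, with the limma standard error. The added 22.4 makes the change of dim genes an understatement. Over the called genes, each turned to its own direction, the median shift from the gd16 mean was 0.82, 0.74 and 0.54 on gd18 replicates 4, 5 and 6. It was 0.04, -0.09 and 0.06 on gd16 replicates 7, 8 and 9. On these genes, which the same contrast chose, replicate 6 was the gd18 animal nearest to gd16. On the same genes replicate 8 was the gd16 animal farthest from gd18. Over all probe sets, gd18 replicates 4 and 5 correlated least with gd16 replicate 9 (0.959 and 0.963), and gd18 replicate 6 least with gd16 replicate 8 (0.966). The number of calls rested on single arrays. It fell to 189, 267, 372, 195 and 441 without gd18 replicate 4, gd18 replicate 5, gd16 replicate 7, gd16 replicate 8 and gd16 replicate 9, and was 855 without gd18 replicate 6. Without both replicate 6 and replicate 8 it was 394, of which 321 were among the 700. A fit on the 12 arrays of unpooled animals called 1681, all 700 among them, with 5.73% of genes higher and 5.99% lower. No gene called both in one of these fits and on the 20 arrays changed direction. The fits share most or all gd18 and gd16 arrays, so this was nearly fixed in advance and is no support.

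The largest rise was that of Dpt, dermatopontin, a small matrix protein that binds decorin and organises collagen fibrils. Its intensity was 2961, 3306 and 2460 in the gd18 testes, against 415, 179 and 335 in the gd16 testes. Every gd18 animal was several times above every gd16 animal, with a log2 change of 3.21 ± 0.33 (limma, adjusted p = 3.12e-05). The rise of Dpt had begun earlier, with 40.3 at gd14, and slowed after gd18, with 4013 at pnd2. The log2 change after gd18 was 0.46, and it differed from that between gd16 and gd18 (second difference in limma, adjusted p = 0.0329). Neighbouring intervals share arrays, here and wherever a second difference is given, and 98 genes (0.683%) were called in this test. A large change in either interval can set the sign of such a difference by itself. For genes chosen by their change between gd16 and gd18, it therefore does not test the change in the other interval.

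**Figure D1:**
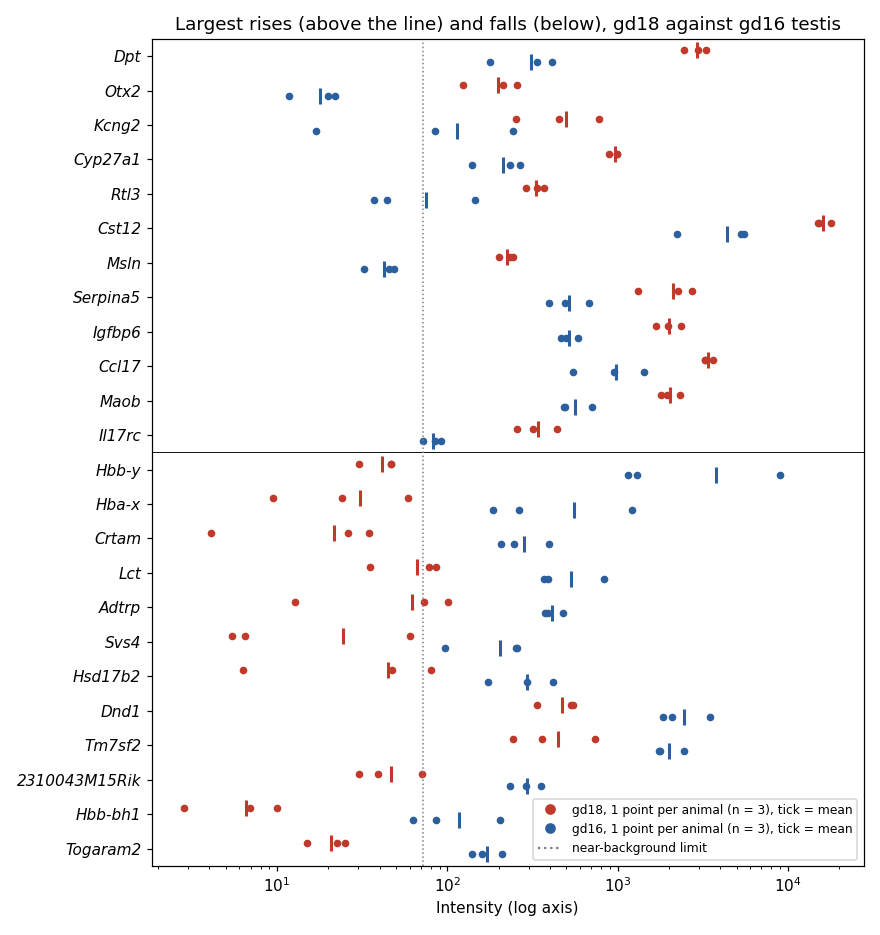
Intensity of the 12 genes with the largest called rise and the 12 with the largest called fall, on a log axis. Points are single animals at gd18 (red, upper in each row) and gd16 (blue, lower), ticks are means of 3, and the dotted line is the near-background limit of 71.6. In every row the 3 gd18 animals lie on 1 side of the 3 gd16 animals, and Hbb-y has 1 gd16 animal at 8957, far above the others.

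Otx2 and Msln were near background at gd16. Otx2, a homeobox regulator of head and eye development, had intensities of 214, 256 and 123 at gd18, against 11.7, 22.0 and 19.8 at gd16. The groups did not overlap, and the log2 change was 2.41 ± 0.56 (limma, adjusted p = 0.0174). Otx2 was back near background at pnd2, at 5.91, and its change after gd18, -2.91, differed from that before it (adjusted p = 0.0165). Msln, mesothelin, a surface protein of the mesothelium that covers the organs, had 232, 201 and 243 at gd18, against 45.6, 48.5 and 32.5 at gd16. The change of Msln was 1.95 ± 0.32 (adjusted p = 0.00193), with no overlap between the days.

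Cyp27a1, the mitochondrial sterol hydroxylase that makes an oxysterol and starts a route of bile acid synthesis, had 896, 986 and 999 at gd18, against 268, 139 and 234 at gd16. The gd18 animals lay close together and well above gd16, with a change of 2.10 ± 0.27 (limma, adjusted p = 0.000398). Igfbp6, a secreted binding protein for insulin-like growth factors, had 2352, 1974 and 1682 at gd18, against 587, 465 and 499 at gd16. Its change of 1.90 ± 0.19 had one of the smallest standard errors among the large rises (adjusted p = 3.12e-05). Maob, monoamine oxidase B, averaged 2019 ± 264 at gd18 and 561 ± 125 at gd16, a change of 1.82 ± 0.25 (adjusted p = 0.00061). Ccl17, a chemokine that attracts T cells, had 3638, 3252 and 3274 at gd18, against 1435, 549 and 959 at gd16. It rose by 1.87 ± 0.44 (limma, adjusted p = 0.0197). At pnd2 it was lower again, at 731, a change from gd18 of -2.30 that differed from the one before it (second difference, adjusted p = 0.0165).

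Kcng2, a modifier subunit of voltage-gated potassium channels, varied most among these genes, with 777, 254 and 455 at gd18, against 84.2, 243 and 16.8 at gd16. Its lowest gd18 animal was barely above its highest gd16 animal, and the change was 2.19 ± 0.55 (limma, adjusted p = 0.0258). Rtl3, a retrotransposon-derived Gag-like gene, rose by 2.02 ± 0.55 (adjusted p = 0.0405). Il17rc, a receptor subunit for interleukins, rose by 1.76 ± 0.38 (adjusted p = 0.0118). The calls of Otx2, Ccl17, Rtl3 and Il17rc were lost without gd18 replicate 4 and without gd16 replicate 8, those of Otx2, Ccl17 and Rtl3 also without gd18 replicate 5. Those of Otx2 and Rtl3 were lost without gd16 replicate 7, and that of Rtl3 without gd18 replicate 6. That of Kcng2 was lost without gd18 replicate 4, gd16 replicate 7 or gd16 replicate 9. The highest adjusted p in these cases was 0.0855 for Otx2, 0.132 for Ccl17, 0.192 for Rtl3, 0.0832 for Il17rc and 0.158 for Kcng2. Dpt, Cyp27a1, Msln, Igfbp6 and Maob were called without any 1 array.

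The largest fall was that of Hbb-y, an embryonic beta-like globin made by primitive red cells from the yolk sac. Its intensity was 30.1, 46.9 and 46.5 at gd18, against 1292, 8957 and 1152 at gd16, and the groups were far apart with 1 gd16 animal well above the rest. The log2 change was -5.25 ± 0.46 (limma, adjusted p = 8.5e-06) and stayed between -5.77 and -4.30 when any 1 array was left out. Hba-x, the embryonic alpha-like globin, had 24.0, 9.41 and 59.0 at gd18, against 184, 1212 and 264 at gd16, with the same gd16 animal, replicate 8, highest. It fell by 3.08 on the log2 scale, with a standard error of 0.49 (adjusted p = 0.00158). Hbb-bh1, the other embryonic beta-like globin, averaged 6.60 ± 3.58 at gd18 and 118 ± 75.5 at gd16. The 3 embryonic globins were the only called genes of 12 measured erythroid genes, beside 3.18% of all genes lower. The median change of the erythroid list was -0.04. Alas2, the erythroid enzyme of haem synthesis, averaged 2123 ± 1096 at gd18 and 2280 ± 742 at gd16 (not called). In bulk tissue, fewer cells of a type and less RNA per cell cannot be told apart, for these genes and all that follow.

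A set of large falls belonged to genes that were higher at gd16 than on either side of it. Hsd17b2, which oxidises testosterone and estradiol to weaker steroids, had intensities of 47.3, 6.27 and 80.2 at gd18, against 420, 294 and 173 at gd16. All gd18 animals were below all gd16 animals, by -2.35 ± 0.44 (limma, adjusted p = 0.00442). The mean of Hsd17b2 had been 14.6 at gd14.

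Adtrp, an androgen-dependent regulator of a coagulation inhibitor, had 12.7, 72.5 and 101 at gd18, against 475, 373 and 389 at gd16, and averaged 50.5 at gd14. Its changes were 2.66 into gd16 and -2.54 ± 0.44 after it (limma, adjusted p = 0.00258), and they differed (second difference, adjusted p = 0.0017). In this test 198 of all genes (1.38%) were called. Crtam, an immunoglobulin superfamily receptor of T and natural killer cells, had 4.08, 34.5 and 26.1 at gd18, against 206, 393 and 246 at gd16. It fell by 2.82 on the log2 scale (adjusted p = 0.0052). Togaram2, a regulator of microtubules in cilia, averaged 20.8 ± 5.16 at gd18 and 170 ± 36.7 at gd16, and 10.2 at gd14.

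Svs4, a seminal vesicle secretory protein, and 2310043M15Rik, which is not described further here, also had their highest mean at gd16. Svs4 averaged 24.2 ± 31.6 at gd18 and 203 ± 91.6 at gd16, after 35.9 at gd14. 2310043M15Rik averaged 46.8 ± 21.6 at gd18 and 293 ± 62.1 at gd16, after 89.0 at gd14. All 6 genes were near background at gd18 and at pnd2. Hsd17b2 and Togaram2 passed the filter on low values through the 3 gd16 arrays alone, and Crtam, Svs4 and 2310043M15Rik through those and 1 gd14 array. Their high gd16 level is therefore part of how they came to be tested. It is given as a description, with no test of the turn at gd16. The adjusted p values of their falls from gd16 carry the same selection and are no separate support. Adtrp passed on 6 arrays outside gd16. The gd18 mean of Lct, lactase, was also near background, at 66.4 ± 27.4, against 532 ± 265 at gd16, but Lct had averaged 689 at gd14 and its second difference was not called (adjusted p = 0.266). The gd18 minus gd16 calls of Lct and Svs4 were lost without gd18 replicate 4, gd18 replicate 5 or gd16 replicate 8, and that of Svs4 also without gd16 replicate 7. The highest adjusted p was 0.144 for Lct and 0.077 for Svs4. Hsd17b2, Adtrp, Crtam, Togaram2 and 2310043M15Rik were called without any 1 array. The filter on low values was not redone when an array was left out. Made anew without a gd16 array, it would have removed Hsd17b2 and Togaram2. For these genes other than Adtrp, the kept calls carry the same selection and are no separate support.

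**Figure D2:**
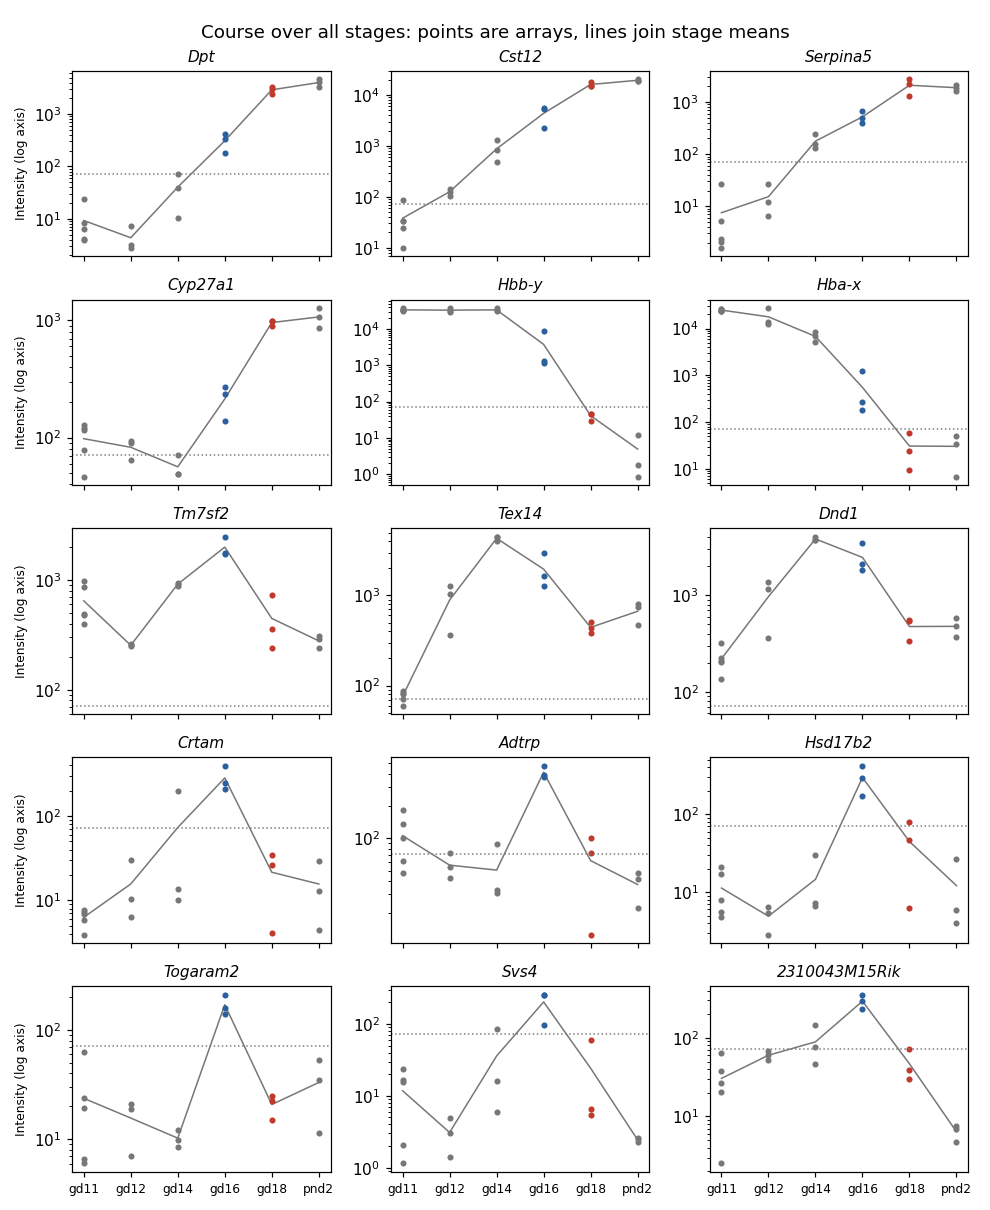
Intensity of 15 genes on a log axis over the 6 stages from gd11 to pnd2. Points are arrays, with gd16 in blue and gd18 in red, lines join stage means and the dotted line is the near-background limit. The 6 genes of the lowest rows have their highest mean at gd16, Dpt, Cst12 and Cyp27a1 stand high at both gd18 and pnd2, and the embryonic globins Hbb-y and Hba-x are near background at gd18.

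Cholesterol synthesis genes fell together. The pathway turns acetyl units into mevalonate, isoprenoids and squalene, closes the sterol ring as lanosterol and ends in a series of reductions and demethylations, and its genes are known targets of the sterol sensor SREBP and its partner NF-Y. Of 17 measured genes, 13 were lower at gd18, none was higher and 4 were not called, with a median change of -0.77, against 0.02 over all genes and 3.18% of all genes lower. In 16 of the 17 every gd18 animal was below every gd16 animal, beside 13.6% of all genes. The summed intensity of the 17 genes was 32238 to 48756 at gd18 and 64935 to 78584 at gd16. The number kept among the 13 calls was 11, 13 and 11 without gd18 replicates 4, 5 and 6, and 9, 9 and 12 without gd16 replicates 7, 8 and 9.

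Among the genes of the mevalonate steps, Mvd, the decarboxylase that makes the first isoprenoid unit, had 484, 530 and 340 at gd18, against 1106, 1046 and 992 at gd16. The days were well separated, by -1.20 ± 0.16 (limma, adjusted p = 0.000427). Pmvk, the kinase before it, changed by -0.75 ± 0.13 (adjusted p = 0.0021), and Fdps, which makes farnesyl pyrophosphate, averaged 6441 ± 1234 at gd18 and 12403 ± 1096 at gd16. Idi1, the isomerase between Mvd and Fdps, fell by 0.77 on the log2 scale with a standard error of 0.18 (adjusted p = 0.0216). The not called genes were Hmgcs1, Mvk, Fdft1 and Sqle, with changes of -0.49, -0.37, -0.21 and -0.46.

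Of the sterol steps, Tm7sf2, a sterol reductase, moved most, with 360, 737 and 242 at gd18, against 2471, 1765 and 1743 at gd16. Its highest gd18 animal was replicate 5, still well below every gd16 animal, and the change was -2.23 ± 0.32 (limma, adjusted p = 0.000649). Hsd17b7, a sterol ketoreductase that also makes estradiol, had 674, 714 and 473 at gd18, against 1570, 1507 and 1572 at gd16, with a change of -1.31 ± 0.16 (adjusted p = 0.000243). Cyp51, the lanosterol demethylase, had 1228, 1822 and 1116 at gd18, against 3060, 3045 and 2874 at gd16 (-1.13 ± 0.16, adjusted p = 0.000538). Lss, the ring-closing lanosterol synthase, and Msmo1, the methyl sterol oxidase, changed by -1.21 and -1.23. Dhcr7, the last reductase, changed by -1.11 ± 0.26 (adjusted p = 0.0178), and its 3 gd18 values of 2554, 2978 and 1141 were spread more widely than its gd16 values of 4991, 4531 and 3903. Sc5d, Ebp and Nsdhl were the other sterol genes called, with changes of -0.77, -0.62 and -0.72.

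**Figure D3:**
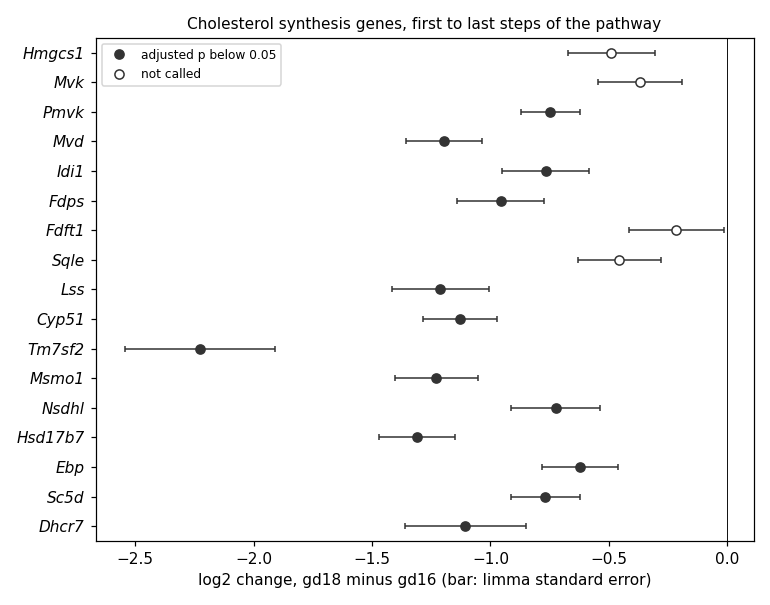
Log2 change between gd18 and gd16 of 17 cholesterol synthesis genes in the order of the pathway, top to bottom. Bars are limma standard errors, filled points passed an adjusted p of 0.05. All points lie below 0, from -2.23 for Tm7sf2 to -0.21 for Fdft1.

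For many genes of the pathway the change after gd16 differed from that before it. In the second difference against the interval from gd14 to gd16, 10 of the 17 genes were called, all with a negative sign, beside 1.38% of all genes. A fall after gd16 can make this difference negative by itself, and both intervals use the gd16 arrays. It therefore does not test for a rise into gd16. Hsd17b7 changed by 0.66 into gd16 and -1.31 after it (adjusted p of the difference 0.00122), Tm7sf2 by 1.08 and -2.23 (adjusted p = 0.00429) and Mvd by 0.47 and -1.20 (adjusted p = 0.00429). After gd18 the changes were smaller, at -0.02 for Hsd17b7, -0.50 for Tm7sf2 and 0.19 for Mvd.

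Promoter windows of 300 bases, 250 before and 50 after a gene's start (RefSeq, assembly GRCm38.p6), were found for 12 of the 13 genes that fell. All 12 held CCAAT, the NF-Y box, on either strand, and so did all 14 measured genes of the list with a window, those not called included. The share was 76.7% of 30 measured cell division genes with a window, of which 2 were called, and 41.1% of all 27025 genes with a window, counting any window of a gene. The core of the sterol regulatory element, searched as TCACNCCAC on both strands, was in 0 of the 12, in 1 of the 14 and in 1.44% of all genes. Below are the windows of the 3 genes with the smallest p, shown because they carry the shared box, with each CCAAT or its reverse complement in capitals. They lie on the minus strand at chr1:169969156-169969455 (Hsd17b7), chr8:122443373-122443672 (Mvd) and chr5:4104648-4104947 (Cyp51). The match is a description of the letters, and binding was not measured.
Hsd17b7: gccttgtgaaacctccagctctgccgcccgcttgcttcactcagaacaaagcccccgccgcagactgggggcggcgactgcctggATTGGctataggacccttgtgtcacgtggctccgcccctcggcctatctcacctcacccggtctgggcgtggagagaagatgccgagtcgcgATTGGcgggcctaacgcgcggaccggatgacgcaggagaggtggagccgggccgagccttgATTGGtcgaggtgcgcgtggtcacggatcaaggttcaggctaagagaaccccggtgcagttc
Mvd: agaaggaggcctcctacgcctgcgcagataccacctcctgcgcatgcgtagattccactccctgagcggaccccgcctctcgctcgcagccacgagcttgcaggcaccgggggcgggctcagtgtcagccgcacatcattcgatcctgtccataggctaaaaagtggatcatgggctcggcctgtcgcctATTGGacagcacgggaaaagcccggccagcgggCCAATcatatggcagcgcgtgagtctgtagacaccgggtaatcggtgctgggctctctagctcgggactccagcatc
Cyp51: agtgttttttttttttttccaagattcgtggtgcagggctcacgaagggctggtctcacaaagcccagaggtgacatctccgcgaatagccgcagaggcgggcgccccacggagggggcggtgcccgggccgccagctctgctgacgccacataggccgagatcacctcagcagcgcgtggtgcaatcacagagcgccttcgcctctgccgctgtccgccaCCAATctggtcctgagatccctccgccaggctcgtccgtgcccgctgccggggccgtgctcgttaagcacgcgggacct
Hsd17b7 held 3 boxes, Mvd 2 and Cyp51 1.

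Genes that sense and move sterols did not follow as a group. Of 18 measured, 1 was higher, 2 were lower and 15 were not called, beside 1.7% of all genes higher and 3.18% lower. Their median change was 0.08. Abca1, the pump that exports cholesterol from cells, had 5631, 5182 and 6605 at gd18, against 2549, 2800 and 3040 at gd16. It rose by 1.04 ± 0.15 (limma, adjusted p = 0.000649) with no overlap. Scarb1, the lipoprotein receptor that supplies steroid-making cells with cholesterol, had 5827, 8724 and 4341 at gd18, against 14630, 12311 and 11579 at gd16. It fell by 1.08 on the log2 scale, with a standard error of 0.20 (adjusted p = 0.00391), and both were called without any 1 array. Stard4, a carrier of cholesterol within cells, fell by 0.51 (adjusted p = 0.0415), a call kept only without gd18 replicate 5. Srebf2, which encodes the sterol-sensing transcription factor, averaged 1639 ± 36.7 at gd18 and 1576 ± 75.2 at gd16 (not called, adjusted p = 0.907).

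Fetal Leydig cell and steroid synthesis genes gave a mixed picture, with 1 higher, 2 lower and 11 not called of 14 measured and a median change of -0.04. Over all genes, 1.7% were higher and 3.18% lower. With no overlap between the days, 2 of the 14 were higher and 5 lower, beside 15.1% and 13.6% of all genes. The summed intensity was 52841 to 79414 at gd18 and 89245 to 111260 at gd16. Scarb1, above, and Fdx1, the ferredoxin that passes electrons to the mitochondrial steroid enzymes, were the genes that fell. Fdx1 had 7753, 10529 and 6165 at gd18, against 16319, 12976 and 13571 at gd16 (-0.84 ± 0.19, limma, adjusted p = 0.0157). The gene that rose, Cyb5a, the cytochrome that assists the lyase step of androgen synthesis, changed by 0.40 ± 0.11 (adjusted p = 0.0447). The call of Fdx1 was lost without gd18 replicate 4, gd18 replicate 6 or gd16 replicate 7, and that of Cyb5a without gd18 replicates 4 or 5 or gd16 replicates 8 or 9.

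Star, Cyp17a1 and Cyp11a1, the steroidogenic genes most often read out, did not pass on the probe set used. For each gene this was the probe set brightest over the testis arrays of all stages, not over gd18 and gd16 alone. Star, which brings cholesterol into mitochondria, had 1574, 3390 and 1140 at gd18, against 8655, 5264 and 4933 at gd16. Cyp17a1, the hydroxylase and lyase of androgen synthesis, had 12026, 18318 and 8585 at gd18, against 29975, 24926 and 25221 at gd16. Cyp11a1, the side-chain cleavage enzyme, had 4879, 6335 and 5484 at gd18, against 13253, 9727 and 9976 at gd16. In all 3 every gd18 animal was below every gd16 animal, as in 13.6% of all genes. Their changes were -1.72 ± 0.60, -1.10 ± 0.38 and -0.97 ± 0.52 (limma, adjusted p = 0.114, 0.11 and 0.345). Both other probe sets of Star were called, with changes of -1.69 (mean 2238 at gd18 and 6817 at gd16, adjusted p = 0.0326) and -1.44 (mean 1215 at gd18 and 3301 at gd16, adjusted p = 0.0341). The first of these averaged more at both days than the Star probe set used. Replicate 5 was the highest gd18 animal for Star, Cyp17a1, Cyp11a1, Scarb1, Fdx1 and Tm7sf2. Hsd3b1, which converts pregnenolone to progesterone, averaged 14548 ± 1204 at gd18 and 14848 ± 1701 at gd16 (not called). A fit on the 12 unpooled arrays called 2 Leydig genes higher and 5 lower, beside 5.73% of all genes higher and 5.99% lower. Adrenal genes, which a dissection might include, had a summed intensity of 1323 to 2239 at gd18 and 1679 to 2260 at gd16. Of their 12 measured genes 2 were near background at both days. Of the 12, 1 was called, Pnmt of adrenaline synthesis, beside 1.7% of all genes higher. Pnmt was higher by 1.45, a call kept only without gd18 replicate 6. Of the 2 other probe sets of Pnmt, 1 was called, with a change of 3.43 (mean 911 at gd18 and 77.3 at gd16, adjusted p = 0.000733), and 1 was not (0.50, adjusted p = 0.69). The part of adrenal tissue in the result was not tested.

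Germ cell genes of the fetal testis, including those of the piRNA pathway, had the lowest median of all the lists, -1.08. Of 29 measured genes, 14 were lower at gd18, none was higher and 15 were not called, against 3.18% of all genes lower. The summed intensity was 26499 to 49001 at gd18 and 62206 to 76023 at gd16. By animal, the median of the list stood -1.50, -1.32 and -0.50 from the gd16 mean on gd18 replicates 4, 5 and 6, and -0.11, 0.19 and -0.08 on the gd16 arrays. Replicate 6 was thus the highest of the gd18 animals. Of the 14 calls, 5, 7 and 14 were kept without gd18 replicates 4, 5 and 6, and 9, 6 and 11 without gd16 replicates 7, 8 and 9. The fit on 12 arrays called 22 lower, beside 5.99% of all genes.

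Of the germ cell genes, Dnd1, an RNA-binding protein required for germ cell survival, had 549, 338 and 535 at gd18, against 2085, 3475 and 1841 at gd16. The highest gd16 animal was replicate 8, and the change was -2.30 ± 0.37 (limma, adjusted p = 0.00167). Tex14, a protein of the bridges that join germ cells, had 386, 432 and 510 at gd18, against 1633, 2968 and 1283 at gd16 (-2.01 ± 0.34, adjusted p = 0.0021). The level of Tex14 then changed by 0.54 to pnd2, which differed from the preceding interval (adjusted p = 0.0483). Nxf2, a nuclear RNA export factor of germ cells, had 735, 794 and 1366 at gd18, against 3299, 4133 and 3920 at gd16, with no overlap (adjusted p = 0.00302).

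Among piRNA pathway genes, Piwil4, the nuclear Piwi protein that directs transposon methylation, had 110, 194 and 378 at gd18, against 787, 1206 and 904 at gd16. It fell by 2.11 on the log2 scale, with a standard error of 0.43 (limma, adjusted p = 0.00777), and the call was lost without gd18 replicate 4 or gd16 replicate 8. Gpat2, Asz1 and Gtsf1, which act in piRNA production or silencing, changed by -1.61, -1.44 and -1.33, and the tudor gene Tdrd7 by -0.73. Piwil2, the cytoplasmic Piwi protein, had 1564, 1640 and 2962 at gd18, against 2879, 3087 and 3176 at gd16, so that its replicate 6 lay within the gd16 range (not called, adjusted p = 0.231). Mael averaged 5910 ± 2636 at gd18 and 10862 ± 889 at gd16 (not called).

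Dnmt3l, which assists the enzymes that lay down new DNA methylation in prospermatogonia, had 659, 989 and 2122 at gd18, against 3130, 3213 and 2615 at gd16. Its change was -1.40 ± 0.33 (limma, adjusted p = 0.0215), lost without gd18 replicates 4 or 5 or gd16 replicates 7 or 8. Dnmt3l had risen by 1.28 into gd16 and was near background at pnd2, at 29.1, a further change of -4.55, and both neighbouring intervals differed from this one (adjusted p = 0.025 for the earlier and 0.017 for the later). Germ cell genes did not all go down. Dazl, a translation regulator of germ cells, had 4224, 4068 and 5566 at gd18, against 3266, 3429 and 3526 at gd16 (0.42 ± 0.33, not called, adjusted p = 0.559). Ddx4, the germ cell helicase often used to mark these cells, averaged 1717 ± 597 at gd18 and 3057 ± 619 at gd16 (-0.86 ± 0.33, not called, adjusted p = 0.152).

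**Figure D4:**
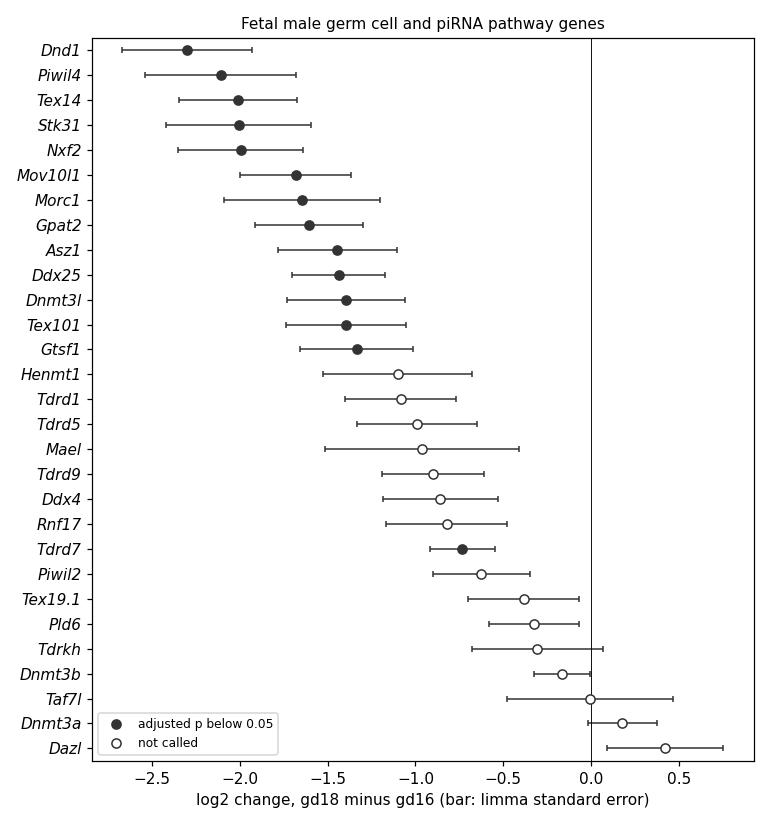
Log2 change between gd18 and gd16 of 29 measured fetal male germ cell and piRNA pathway genes, in order of the change. Bars are limma standard errors, filled points passed an adjusted p of 0.05. The 14 filled points all lie below 0, and Dazl has the highest value at 0.42.

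Pluripotency genes were mostly not called. Of 26 measured, Utf1, a chromatin factor of pluripotent cells, and Dppa3, a maternal and germ line factor, were lower, and 24 were not called. The share of all genes lower was 3.18%, here and for the meiosis and spermatogonial lists below. Utf1 had 588, 637 and 1092 at gd18, against 1950, 2669 and 2011 at gd16 (-1.53 ± 0.28, limma, adjusted p = 0.00375). Dppa3 averaged 195 ± 46.3 at gd18 and 751 ± 611 at gd16, with gd16 replicate 8 at 1457, and its call was kept only without gd16 replicate 9. Pou5f1 averaged 362 ± 79.8 at gd18 and 914 ± 301 at gd16 (not called, adjusted p = 0.0899). Of 23 meiosis genes, Hormad1 and Tex15 were lower, by 1.68 and 1.27 on the log2 scale, calls lost without gd18 replicates 4 or 5 or gd16 replicates 7 or 8. The call of Tex15 was also lost without gd16 replicate 9. Of 19 spermatogonial genes, 1 was called, Taf4b, a transcription cofactor of the germ line, which changed by -1.13 ± 0.24 (adjusted p = 0.00945) and was lost without gd18 replicates 4 or 5. Neither of its 2 other probe sets was called (adjusted p = 0.116 and 0.0875). The median of the spermatogonial list was 0.41, with 13 of 19 genes above 0. With no overlap between the days, 6 genes were higher and 3 lower, beside 15.1% and 13.6% of all genes.

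Sertoli cell genes leaned upward. Of 27 measured genes 3 were higher, 2 lower and 22 not called, beside 1.7% of all genes higher and 3.18% lower. The median change was 0.49, and 15 genes were higher in every gd18 animal than in every gd16 animal, beside 15.1% of all genes. Cst12, a cystatin-family gene, had 17970, 15341 and 15121 at gd18, against 5311, 2233 and 5551 at gd16. It rose by 1.99 ± 0.38 (limma, adjusted p = 0.00471). Serpina5, an inhibitor of serine proteases, had 2753, 2256 and 1313 at gd18, against 677, 397 and 491 at gd16 (1.94 ± 0.31, adjusted p = 0.00181). Shbg, which encodes the androgen-binding protein, had 2247, 995 and 1299 at gd18, against 454, 367 and 504 at gd16 (1.66 ± 0.25, adjusted p = 0.00105). These 3 calls held without any 1 array, and the fit on 12 arrays called 13 higher, beside 5.73% of all genes.

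The Sertoli cell genes that fell were Rhox5, an androgen-responsive homeobox gene, and Col9a3, a collagen chain. Rhox5 had 160, 153 and 250 at gd18, against 562, 883 and 720 at gd16 (-1.83 ± 0.40, limma, adjusted p = 0.0118). Col9a3 averaged 302 ± 64.7 at gd18 and 1002 ± 328 at gd16. Both calls were lost without gd18 replicates 4 or 5 or gd16 replicate 8. Sox9, the regulator that sets Sertoli cell fate, averaged 1043 ± 236 at gd18 and 625 ± 54.1 at gd16 (0.69 ± 0.28, not called, adjusted p = 0.177). Fshr, the receptor for follicle-stimulating hormone, averaged 349 ± 46.6 at gd18 and 206 ± 34.0 at gd16 (0.71 ± 0.25, not called, adjusted p = 0.126). Dhh, the hedgehog ligand from Sertoli cells, averaged 4452 ± 734 at gd18 and 3147 ± 193 at gd16 (not called).

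Matrix genes were higher at gd18 where they were called, with the exception of Col9a3. Of 11 small leucine-rich proteoglycan genes and dermatopontin, 3 were higher, with a median change of 0.68 and summed intensities of 40656 to 41331 at gd18 and 19802 to 23705 at gd16. Besides Dpt they were Ogn, osteoglycin, with 4767, 5453 and 4389 at gd18, against 1765, 1350 and 1736 at gd16 (1.58 ± 0.30, limma, adjusted p = 0.00488), and Aspn, asporin (1.26 ± 0.30, adjusted p = 0.021). Ogn was called without any 1 array, and Aspn was lost without gd18 replicate 5 or gd16 replicates 7 or 8. Of 17 elastic fibre genes 2 were higher, with a median of 0.60. Over all genes 1.7% were higher, the share to set beside the proteoglycan and elastic fibre counts. Lox, the enzyme that cross-links elastin and collagen, had 3638, 3307 and 4081 at gd18, against 1438, 1381 and 1864 at gd16 (1.23 ± 0.27, adjusted p = 0.0146). Mfap4, a microfibril protein, rose by 0.73 ± 0.19 (adjusted p = 0.0327).

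Of 24 basement membrane genes, 4 were higher, beside 1.7% of all genes. Lama2, a laminin chain, had 4984, 3697 and 3482 at gd18, against 1774, 1507 and 1862 at gd16 (1.22 ± 0.19, limma, adjusted p = 0.0014), and was called without any 1 array. Lamc3, another laminin chain, Col4a4, a chain of collagen IV, and Smoc2, a matricellular protein, rose by 1.34, 1.06 and 0.81. Of 26 collagen chain genes, Col9a3 was the only one called, lower, beside 3.18% of all genes lower. Col1a1, the main fibrillar collagen chain, had 17177, 15726 and 16641 at gd18, against 9506, 9831 and 11916 at gd16, apart in every animal but not called (0.67 ± 0.35, adjusted p = 0.333). All of these matrix calls but those of Dpt, Ogn and Lama2 were lost without gd16 replicate 8. Lox was also lost without gd18 replicate 4 or gd16 replicate 7, and Col4a4 without the same arrays. Lamc3 was kept only without gd18 replicate 6, and the calls of Mfap4 and Smoc2 were lost whichever array was left out. The fit on 12 arrays called 7 of the proteoglycan, 9 of the elastic fibre, 7 of the basement membrane and 9 of the collagen genes higher. That fit called 5.73% of all genes higher.

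Of 23 interstitial and stromal progenitor genes, Cd34, a surface sialomucin, was the only one called, with 2013, 1965 and 1694 at gd18, against 905, 817 and 932 at gd16. It rose by 1.07 ± 0.14 (limma, adjusted p = 0.000398), in every animal and without any 1 array. The share of all genes called higher was 1.7%, beside this list and the macrophage and complement lists below. None of 19 smooth muscle genes or 27 endothelial genes was called (limma), with medians of 0.33 and 0.27. At an unadjusted p below 0.05, which 17.8% of all genes had, 2 smooth muscle genes were higher and 1 lower, and 5 endothelial genes were higher and 3 lower. On the 12 arrays 5 smooth muscle genes were higher, and 3 endothelial genes were higher and 2 lower. That fit called 5.73% of all genes higher and 5.99% lower. Acta2, smooth muscle actin, averaged 17509 ± 2124 at gd18 and 14587 ± 1170 at gd16. Of 25 macrophage and leukocyte genes, C1qc, a chain of complement component C1q, was the only one called, with 357, 356 and 691 at gd18, against 112, 113 and 252 at gd16 (1.45 ± 0.39, adjusted p = 0.035). The call was kept only without gd16 replicate 9. The median change of the macrophage list was 0.57, with 23 of 25 genes above 0. The summed macrophage intensity was 7151 to 13685 at gd18 and 4757 to 7590 at gd16, highest in gd18 replicate 6. Serping1, the C1 inhibitor, was the 1 called of 11 complement genes (0.92 ± 0.18, adjusted p = 0.00673, lost without gd16 replicate 8).

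Marker lists of other tissues held few calls. None of 16 duct epithelium, 22 muscle, 6 liver, 15 neural, 7 adipocyte or 10 neutrophil genes was called (limma). At an unadjusted p below 0.05 there were 3 duct, 2 muscle, 1 liver, 1 neural, 3 adipocyte and 0 neutrophil genes, beside 17.8% of all genes. On the 12 arrays, 4 duct genes were higher and 1 lower, 3 neural genes were higher, 1 muscle gene was higher and 1 lower, and 1 adipocyte gene was lower. In that fit 5.73% of all genes were higher and 5.99% lower. Near background at both days were 5 of the 16 duct genes, 3 of the 22 muscle genes, 3 of the 6 liver genes and 3 of the 15 neural genes. Summed intensities were 17388 to 17731 at gd18 and 15688 to 17083 at gd16 for duct genes, and 4151 to 4629 at gd18 and 2662 to 3537 at gd16 for neural genes. The part of these tissues in the results was not tested.

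Heat shock genes, which encode chaperones and their helpers, were lower at gd18 where called. Of 18 measured genes 8 were lower, none was higher and 10 were not called, beside 3.18% of all genes lower. The median change was -0.31, and summed intensities were 99555 to 105540 at gd18 and 116980 to 125910 at gd16. Stip1, the adaptor that joins the Hsp70 and Hsp90 chaperones, had 1865, 1810 and 2148 at gd18, against 3240, 4067 and 2986 at gd16. It changed by -0.81 ± 0.13 (limma, adjusted p = 0.00193) and was called without any 1 array. Ahsa1, which activates the Hsp90 ATPase, changed by -0.56 ± 0.12 (adjusted p = 0.0135), and Hsph1, a nucleotide exchange factor of Hsp70, by -0.53 ± 0.12 (adjusted p = 0.0181). Dnaja1, an Hsp70 cochaperone, changed by -0.42 ± 0.08 (adjusted p = 0.00705), while another of its probe sets stood at 0.31, not called. Of the 8 calls, 1, 6 and 6 were kept without gd18 replicates 4, 5 and 6, and 4, 2 and 7 without gd16 replicates 7, 8 and 9.

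The heat shock element, searched on both strands as the units GAA, TTC and GAA with 2 bases between neighbours, was in the promoter window of 3 of the 6 called and 3 of the 15 measured heat shock genes that had one, against 0.662% of all genes. They were Hsph1 and the pair Hspd1 and Hspe1, the mitochondrial chaperonin and its cochaperonin. Hspd1 and Hspe1 are read in opposite directions from 1 promoter, and their windows overlap and hold the same element, so only that of Hspd1 is shown. The windows lie on the minus strand at chr5:149636266-149636565 (Hsph1) and chr1:55087883-55088182 (Hspd1), in GRCm38.p6 and from RefSeq, and capitals mark the element.
Hsph1: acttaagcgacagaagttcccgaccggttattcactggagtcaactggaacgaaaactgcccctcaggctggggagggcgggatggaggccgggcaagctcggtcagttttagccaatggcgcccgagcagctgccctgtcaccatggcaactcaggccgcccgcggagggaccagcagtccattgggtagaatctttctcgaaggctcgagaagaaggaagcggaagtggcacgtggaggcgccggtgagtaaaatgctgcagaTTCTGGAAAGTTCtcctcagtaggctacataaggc
Hspd1: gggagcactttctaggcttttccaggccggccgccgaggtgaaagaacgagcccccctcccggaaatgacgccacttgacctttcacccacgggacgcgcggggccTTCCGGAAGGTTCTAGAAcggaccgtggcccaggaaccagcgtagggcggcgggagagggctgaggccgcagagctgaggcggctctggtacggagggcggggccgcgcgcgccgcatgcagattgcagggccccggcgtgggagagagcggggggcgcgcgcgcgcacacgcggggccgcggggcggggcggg
Hspd1 and Hspe1 fell to a similar degree. Hspd1 had 9118, 10469 and 8362 at gd18, against 13104, 10907 and 11366 at gd16 (-0.34 ± 0.08, limma, adjusted p = 0.0237), and Hspe1 had 9219, 10354 and 8552 at gd18, against 13002, 12923 and 11836 at gd16 (-0.43 ± 0.10, adjusted p = 0.0237).

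Glucose uptake and glycolysis genes moved the other way. Of 17 measured genes 6 were higher, none was lower and 11 were not called, with a median change of 0.39, against 1.7% of all genes higher. The summed intensity was 71668 to 73987 at gd18 and 55633 to 60250 at gd16. Pgk1, phosphoglycerate kinase, had 5718, 5825 and 6196 at gd18, against 4551, 4076 and 4620 at gd16 (0.42 ± 0.08, limma, adjusted p = 0.00391). Hk2, the hexokinase that commits glucose to the pathway, had 2609, 2918 and 2308 at gd18, against 1683, 1557 and 1736 at gd16 (0.64 ± 0.13, adjusted p = 0.00624). Pfkl, a phosphofructokinase, and Tpi1, triosephosphate isomerase, rose by 0.62 and 0.41. From gd18 to pnd2 Pgk1 changed by -0.78, Pfkl by -0.93 and Tpi1 by -0.75, and each differed from the interval before (second difference, adjusted p = 0.000489, 0.0165 and 0.00806). In that test 6 of the 17 genes were called, all with a negative sign, beside 0.683% of all genes. A rise into gd18 can make this difference negative by itself, and both intervals use the gd18 arrays. It therefore does not test for a fall after gd18. Of the 6 calls between gd18 and gd16, 2, 2 and 3 were kept without gd18 replicates 4, 5 and 6, and 2, 2 and 4 without gd16 replicates 7, 8 and 9.

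**Figure D5:**
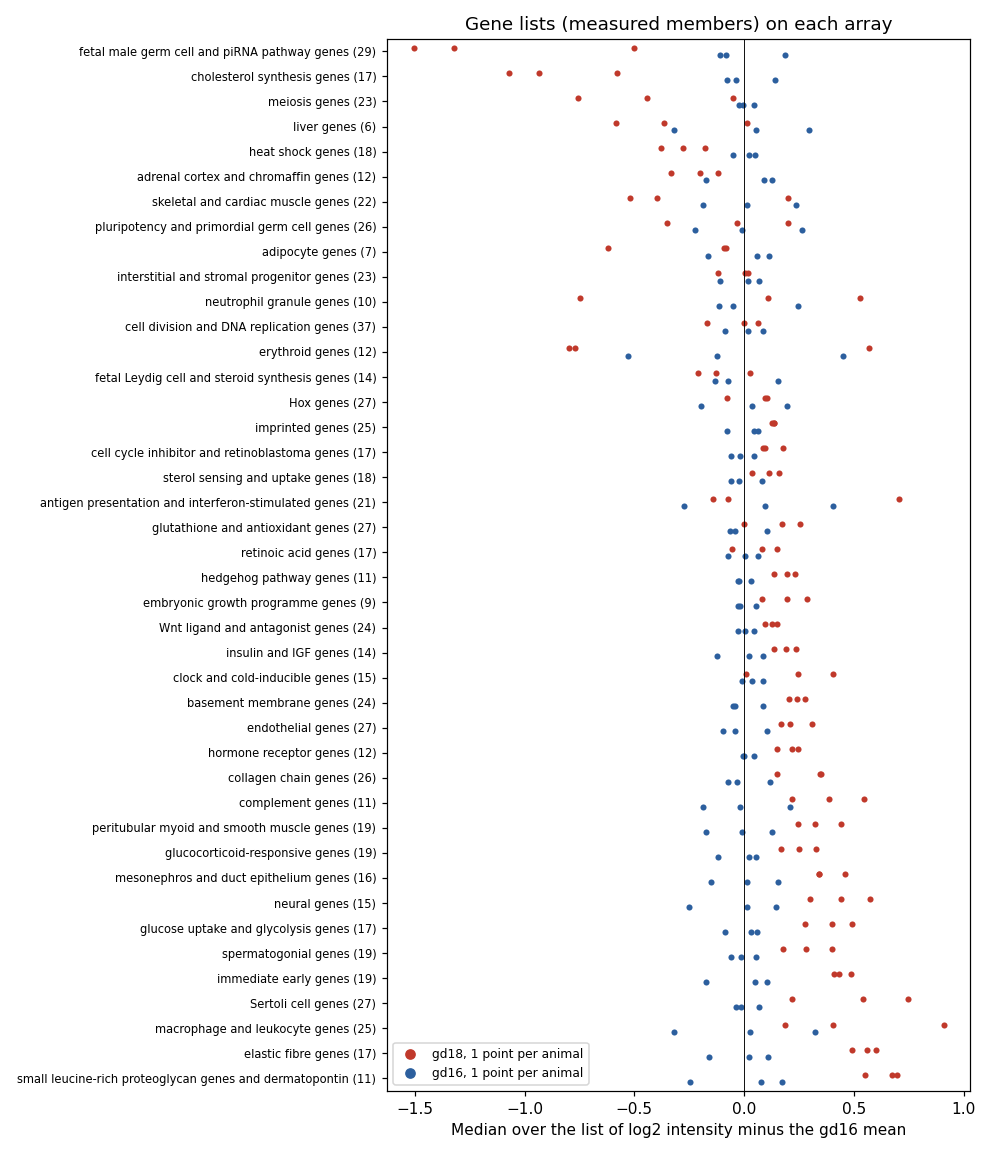
Median over each gene list of the log2 intensity minus the gd16 mean, for each gd18 animal (red, upper in each row) and each gd16 animal (blue, lower), with the number of measured genes in brackets. Rows are in order of the list's median change, with the germ cell and cholesterol lists at the top and the elastic fibre and proteoglycan lists at the bottom. Single gd18 animals of other lists lie further out, such as replicate 6 at 0.91 for macrophage genes. Erythroid genes on replicate 4, at -0.80, lie below cholesterol genes on replicate 5, at -0.58. In the germ cell list gd18 replicate 6 is at -0.50, above the other gd18 animals.

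Cell division genes changed little, beside 3.18% of all genes called lower. Of 37 measured, Cdc20, an activator of the anaphase-promoting complex, and Bub1, a spindle checkpoint kinase, were lower, by 0.47 and 0.66 on the log2 scale, and 35 were not called, with a median of -0.05. The call of Cdc20 was lost without gd16 replicate 8, and that of Bub1 without gd16 replicate 8 or gd18 replicates 4 or 5. Mki67, a marker of cycling cells, averaged 5100 ± 800 at gd18 and 5559 ± 407 at gd16 (not called, limma, adjusted p = 0.585). Hmga2, a chromatin protein of embryonic growth, had 376, 344 and 396 at gd18, against 760, 1208 and 1017 at gd16 (-1.34 ± 0.21, adjusted p = 0.00129), and was called without any 1 array. Igf2, the fetal growth factor, averaged 10270 ± 834 at gd18 and 9501 ± 830 at gd16 (not called, adjusted p = 0.83).

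Among genes that respond to signals, 3 of 19 immediate early genes were higher, beside 1.7% of all genes, with a median of 0.42. Ier3, an early response gene, had 565, 517 and 576 at gd18, against 270, 215 and 267 at gd16 (1.08 ± 0.20, limma, adjusted p = 0.00374). Klf2, a zinc finger factor, and Fos, a subunit of AP-1, rose by 1.10 and 0.84. Klf9, a zinc finger factor induced by glucocorticoid and thyroid hormone, was the 1 called of 19 glucocorticoid-responsive genes, with 496, 530 and 682 at gd18, against 185, 164 and 344 at gd16 (1.28 ± 0.23, adjusted p = 0.00297). Of its 4 other probe sets, 2 were called in the same direction and 1 had the opposite sign. Ier3 and Klf9 were called without any 1 array, Klf2 was lost without gd18 replicates 4 or 5 or gd16 replicate 8, and Fos was kept only without gd18 replicate 6.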

How the data were processed

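RNA of whole testes was measured on 1-colour oligonucleotide arrays. The authors deposited a linear intensity for each probe set, made with GCOS (Affymetrix software), per the submitters' processing notes, which give no version. Every array had a mean of 500 once its lowest and highest 2% were trimmed, as the values show. Of 45101 probe sets, 34945 named 1 gene through the platform table, updated by Entrez identifier, and the others were left out. Values were used as log2(intensity + 22.4), the offset being the 20th percentile of the testis values. Probe sets were kept if they exceeded the 40th percentile of the array on 3 or more of the 20 testis arrays. The probe set brightest over the testis arrays of all stages represented its gene. The filter was not redone for the fits that left out single arrays.

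All 20 testis arrays entered 1 limma fit (limma 3.58.1, R 4.3.3) with 6 stage means and an intensity trend, with 14 residual and 4.94 prior degrees of freedom. Every adjusted p is 2-sided and Benjamini-Hochberg adjusted over 14338 genes, with calls below 0.05. The fit assumes 1 spread per gene over all stages, the pooled gd11 and gd12 arrays included. Replicates are animals of separate dams, per the design text. The labels name no batch, so none could be tested, and 3 arrays a day limit the precision. Detection calls were not used here.

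The comparison, the gene lists and the named genes were chosen with earlier results of these data known. Named were the 12 largest called rises and falls without overlap whose higher mean was above near background, up to 4 called genes per list and direction in order of p, and a set of testis genes. Other list members were named after their values were seen. The fit was tested on simulated data. Alternatives were other offsets, filters, normalization, array sets, fits and probe set rules, and leaving out single arrays; leaving out gd18 replicate 6 and gd16 replicate 8 together was added after seeing the data. Promoter windows came from RefSeq (GRCm38.p6).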

Additional observations from a re-analysis of the deposited data

How the results depend on the processing

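Between gd18 and gd16, the genes called numbered 700, with 244 genes called higher at gd18, 456 genes called lower at gd18 and 201 genes called at least 2-fold. On the 6 gd18 and gd16 arrays alone, 1143 were called and 564 were higher. On the gd18, gd16, gd14 and pnd2 arrays, 1681 were called, 822 higher, 859 lower and 330 by at least 2-fold. With 1 array left out, genes called ranged from 189 to 855, higher from 53 to 262, lower from 136 to 593, and at least 2-fold from 78 to 293. Without gd18 replicate 6 and gd16 replicate 8 together, an alternative chosen after seeing the data, 394 were called, 97 higher and 297 lower. The cause was not tested. With other offsets, filters, quantile normalization, no trend, robust eBayes or mean probe sets, genes called ranged from 543 to 852. No gene called both in one of these fits and on the 20 arrays changed direction, which the shared arrays made nearly certain in advance. Among the named genes, the log2 change of Mki67, not called, ran from -0.206 to 0.00302 with 1 array left out, turning without gd18 replicate 6, and was 0.0626 without gd18 replicate 6 and gd16 replicate 8. That of Xist, not called, ran from -0.039 to 0.329, turning without gd16 replicate 7. No paired analysis was possible because replicate numbers run on over the series and none is shared by gd18 and gd16. Dim genes have few units above the offset, and their changes are understated.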

Other observations

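Other lists held 1 or 2 calls, beside 1.7% of all genes higher and 3.18% lower. Of 17 cell cycle inhibitor and retinoblastoma genes, Cdkn2c, an inhibitor of the G1 kinases, averaged 1238 ± 236 at gd18 and 678 ± 32.7 at gd16 (limma, adjusted p = 0.0396), and Gadd45b, a stress-induced gene, averaged 890 ± 40.3 at gd18 and 519 ± 119 at gd16 (adjusted p = 0.0437). The 2 other probe sets of Gadd45b were not called, at -0.06 (mean 391 at gd18 and 414 at gd16) and 0.02. Of 15 clock and cold-inducible genes, Tef and Dbp, related transcription factors of the circadian output, rose by 0.87 and 0.97. Of 17 retinoic acid genes, Rara, a retinoic acid receptor, and Stra6, the retinol uptake receptor, rose by 0.72 and 1.60. Of 24 Wnt genes, Wnt2 rose by 1.55 and Lef1, a transcription factor of the pathway, fell by 0.78 on the log2 scale. Cdon, a hedgehog coreceptor, rose by 0.64, and Ndn, an imprinted gene, by 0.48. Each of these calls was lost without at least 4 of the 6 arrays in turn, among them gd16 replicate 8 in every case. None of 27 Hox, 21 antigen presentation and interferon, 12 hormone receptor or 27 glutathione genes was called (limma). At an unadjusted p below 0.05 there were 0 Hox, 0 antigen presentation and interferon, 3 hormone receptor and 4 glutathione genes, beside 17.8% of all genes. On the 12 arrays of unpooled animals, 1 Hox gene was lower, 2 antigen presentation and interferon genes were higher, 4 hormone receptor genes were higher and 1 lower, and 4 glutathione genes were higher and 1 lower. In that fit 5.73% of all genes were higher and 5.99% lower. Of the genes named by rule and called between gd18 and gd16, 35 had another probe set that passed the filter. In 18 of the 35 another probe set was called in the same direction, in 17 none was, and in 0 was another called in the opposite direction.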
